A study of Mus musculus with 16 samples.

Results

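The transcripts of 41 mouse genes of the p53 pathway and of intrinsic (mitochondrial) apoptosis were followed in primary cortical neurons that expressed huntingtin (Htt) exon 1 with a normal or an expanded glutamine tract. The genes were picked by symbol from a list of known p53 regulators, p53 targets and apoptosis genes, and each was matched through its Ensembl identifier to 1 of the 41388 genes counted in every library. All 41 passed the filter on low counts, as did 15103 genes in all. The neurons came from Swiss Webster embryos at embryonic day 16, were transduced on day 5 in vitro with 2 lentiviruses at once, and gave RNA on day 10. One virus carried Htt exon 1 with 25 glutamines (25Q) or with 72 (72Q), and the other carried a short hairpin RNA (shRNA) against luciferase, as the control, or 1 of 2 shRNAs against Twist1, a basic helix-loop-helix transcription factor. Neurons with 25Q received the control shRNA, and neurons with 72Q received the control, shRNA 1 or shRNA 2, which makes 4 groups. Each group held 4 libraries, 1 from each of the experiments labelled exp107, exp108, exp109a and exp109b. The labels do not say whether exp109a and exp109b, which share a number, were separate experiments. All cells carried an exon 1 transgene and an shRNA, and no untransduced neurons and no 25Q neurons with a Twist1 shRNA were analysed here. The transgene is a fragment of Htt, and the sources used here do not give the promoters driving it or the sequences of the shRNAs. The question set by the series title is what part Twist1 has in the transcript changes that mutant Htt brings about.

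The p53 protein, encoded by Trp53, is a transcription factor that is held low by the ubiquitin ligase Mdm2 and its partner Mdm4 and accumulates after DNA damage and other stress. It binds pairs of a short palindromic element and switches on genes that halt the cell cycle, repair DNA, adjust metabolism or kill the cell. Killing runs through the mitochondrion: the BH3-only proteins Puma (Bbc3), Noxa (Pmaip1) and Bim (Bcl2l11) free or activate Bax and Bak1, which permeabilise the outer membrane. Released cytochrome c then assembles Apaf1 and caspase 9 into the apoptosome, while Bcl2, Bcl2l1 and Mcl1 oppose the membrane step. In postmitotic neurons, p53, Puma and Bax are well known as parts of the death response to DNA damage and trophic factor loss.

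Libraries held 15814525 to 19533034 counts. Levels are given as CPM, counts scaled to the library size corrected by TMM factors, and every list of 4 values is in the order exp107, exp108, exp109a and exp109b. Twist1 had 0.29, 0.55, 0.245 and 0 CPM with 25Q and 3.29, 5.08, 3.84 and 4.39 CPM with 72Q and the control shRNA. It had 1.82, 1.69, 0.904 and 1.87 CPM with shRNA 1 and 1.4, 2.19, 1.29 and 1.7 CPM with shRNA 2, so both knockdown groups lay below every 72Q control library and above every 25Q library. Its log2 fold change was -1.35 ± 0.20 (SE) with shRNA 1 and -1.29 ± 0.19 with shRNA 2, and the 2 shRNAs differed by -0.0662 ± 0.22 (adjusted p = 0.826, 95% interval -0.526 to 0.394). Htt reads were 276 ± 35.4 CPM (SD, n = 4) with 25Q and 243 ± 14.4 CPM with 72Q, a count that cannot separate transgene from endogenous transcript. Summed over 11 neuron markers, levels were 7790 to 8560 CPM in the 25Q libraries, 4730 to 5820 in the 72Q control libraries, 5350 to 5900 with shRNA 1 and 4780 to 5710 with shRNA 2, and all 11 markers were lower in 72Q than in 25Q. The cultures also held astrocyte (1590 to 2370 CPM over 8 markers) and oligodendrocyte lineage (747 to 1190 CPM over 7) transcripts, and 112 to 205 CPM over 8 markers of proliferating progenitors, of which 6 rose in 72Q. In 72Q against 25Q, 5 of the 8 astrocyte markers were called higher and none lower, where 29.3% and 27.8% of all genes were called. With shRNA 2, 6 of the 8 astrocyte and 6 of the 7 oligodendrocyte lineage markers were called lower than with the control, where 21.5% of all genes were, and with shRNA 1, 5 of the 7 oligodendrocyte lineage markers, where 23.6% of all genes were. Microglia and macrophage markers summed to at most 13.2 CPM, with Tmem119 at 0 in 25Q and C1qb at 0 with shRNA 2, and endothelial, mural and meningeal markers to at most 29.8 CPM, with Cldn5 at 0 in 25Q. Mitochondrial transcripts made up 2.41 to 2.78% of counts in 25Q, 3.16 to 3.59% in 72Q with the control, 2.39 to 3.26% with shRNA 1 and 2.1 to 2.78% with shRNA 2. The part of these differences in the results on the 41 genes was not tested, and in bulk RNA fewer cells of a type cannot be told apart from less RNA per cell.

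Promoters were available from RefSeq (build GRCm38.p6) for 33 of the 41 genes, as 45 windows of 250 bases before to 50 bases after a transcription start. Zmat3, Trp53inp1, Ddb2, Xpc, Rrm2b, Tnfrsf10b, Perp and Pmaip1 were not matched. The p53 consensus element is a pair of decamers. A full match to the decamer, searched on both strands, stood in 13 of these 45 windows (28.9%) and in 8.36% of all 32851 RefSeq windows of that length. A pair of decamers with the core bases CNNG kept in each, at most 2 mismatches in all and a spacer of at most 13 bases stood in 8 windows (17.8%) against 4.09% of all windows. The settings were chosen after such matches had been looked at, and a match is a run of letters and not a shown binding site. Since many of the 41 genes were listed as known p53 targets, the higher shares in their windows are only a description. The 8 stretches are printed because they show how the element looks in genes whose levels are described next, 5′ to 3′ on the strand of the gene, with the paired decamers in capitals.
Trp73, chr4:154097205-154097254, minus strand: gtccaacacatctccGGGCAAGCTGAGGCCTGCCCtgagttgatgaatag
Gadd45a, chr6:67037423-67037478, minus strand: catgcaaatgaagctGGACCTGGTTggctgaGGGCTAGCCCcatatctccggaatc
Bax, chr7:45467064-45467114, minus strand: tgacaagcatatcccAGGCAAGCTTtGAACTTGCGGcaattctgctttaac
Ckap2, chr8:22185988-22186037, minus strand: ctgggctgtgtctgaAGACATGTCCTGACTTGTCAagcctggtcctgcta
Sesn1, chr10:41887238-41887290, plus strand: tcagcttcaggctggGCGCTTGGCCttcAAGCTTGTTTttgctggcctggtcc
Ccng1, chr11:40755447-40755496, minus strand: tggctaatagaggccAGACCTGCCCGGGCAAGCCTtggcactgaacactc
Gtse1, chr15:85859930-85859964, plus strand: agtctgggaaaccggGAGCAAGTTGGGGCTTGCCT
Cdkn1a, chr17:29090891-29090952, plus strand: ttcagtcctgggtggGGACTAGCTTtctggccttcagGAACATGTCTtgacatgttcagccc

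In Cdkn1a both decamers matched the consensus with 0 mismatches and stood 12 bases apart, the first beginning 73 bases before a start site. The capitals mark the pair with the fewest mismatches. In lower case, directly after the second decamer, lies a further one with the core bases kept and 1 mismatch. Together they form an abutting pair that also meets the rule. Ccng1 and Gtse1 each had 1 mismatch with no spacer, and the other 5 pairs had 2 mismatches. The Trp73, Ccng1, Gtse1 and Ckap2 decamers abutted, while the spacer was 1 base in Bax, 3 bases in Sesn1 and 6 bases in Gadd45a.

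Scaled to the exon length of each gene, levels spanned a wide range in every group. In 25Q neurons the highest members were Plk2 (83.9 ± 4.08 CPM per kb, SD, n = 4), Ddit4 (62.4 ± 8.45), Bax (52.3 ± 0.656), Ei24 (41.6 ± 0.894) and Bbc3 (38.3 ± 3.68). The order at the top differed in 72Q neurons with the control, where Bax (70.6 ± 9.24 CPM per kb), Bbc3 (57 ± 5.07) and Cdkn1a (55 ± 10.5) came first, followed by Ddit4 (51.2 ± 4.22). Standard deviations overlapped between neighbours from Bax to Ddit4, and Plk2 (37.6 ± 1) came seventh. Trp73 (0.0352 ± 0.0278 CPM per kb in 25Q), Fas (0.204 ± 0.0659) and Tnfrsf10b (0.295 ± 0.0945) were the lowest 3 in 25Q, and the same genes were lowest in each 72Q group. Trp53 itself stood in the middle, at 7.62 ± 0.835 CPM per kb in 25Q and 9.63 ± 0.751 in 72Q with the control.

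**Figure D1:**
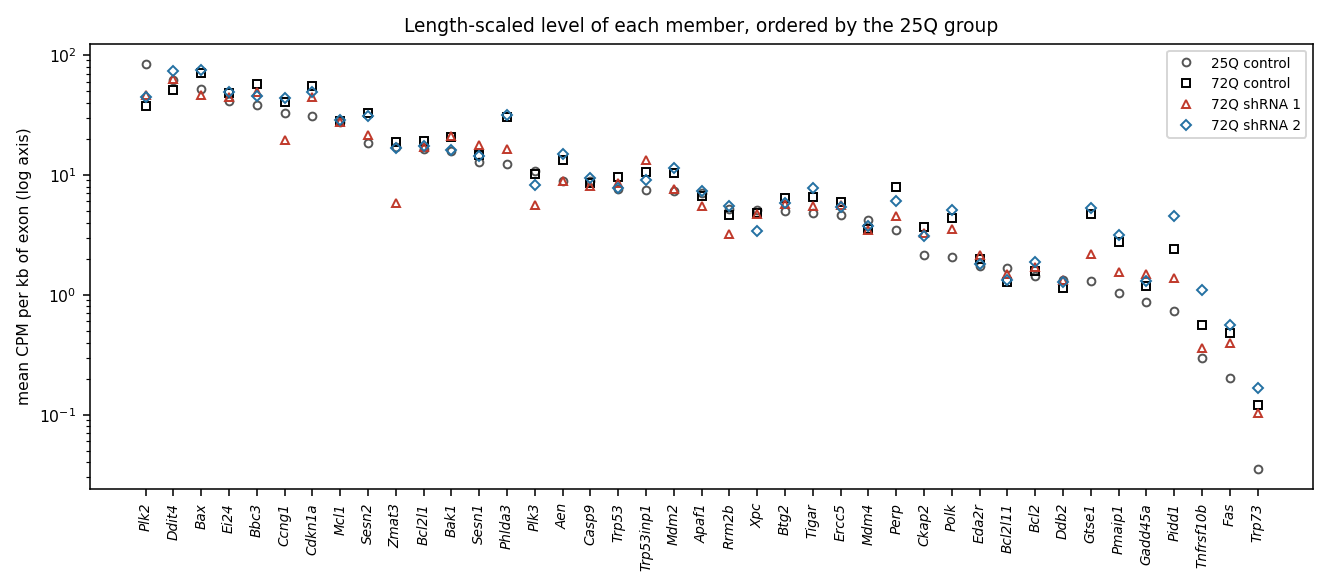
Mean level of each of the 41 genes per kb of exon (y axis, log scale, CPM per kb) in each group (symbols, n = 4 libraries), with genes ordered along the x axis by their level in 25Q neurons. Levels run from 83.9 CPM per kb for Plk2 down to 0.0352 for Trp73 in 25Q, and the red triangle of Zmat3 (shRNA 1, 5.85) sits well below its other 3 symbols (16.8 to 18.9).

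The first comparison, 72Q against 25Q with the control shRNA, asks which of these genes mutant exon 1 changed. Most of the 41 genes were higher in 72Q neurons. Gtse1, a microtubule-binding regulator of p53 that is itself a p53 target, was 3.44-fold higher, Pidd1, a death domain scaffold, 3.12-fold, Pmaip1 2.6-fold and Phlda3, a brake on Akt, 2.4-fold, with no overlap between the groups in any of these. Plk2, a polo-like kinase, stood apart, falling to 0.449 of its 25Q level. Of the 41 genes, 27 rose, 5 fell and 9 did not pass the threshold of 0.05 on the adjusted p of edgeR's quasi-likelihood test. Among all genes tested 29.3% were called higher and 27.8% lower, or 57.1% in either direction. The median log2 fold change was 0.36 over the 41 genes and 0.03 over all genes, and the groups did not overlap in 24 of the 41, where they did not overlap in 38.3% of all genes tested. All but 2 of these calls held with each of the 16 libraries left out in turn. The exceptions were Zmat3, at 0.10 without the exp109a 72Q control library (adjusted p = 0.0708), and Rrm2b, at -0.18 to -0.13 without the exp107, exp108 or exp109b library of 25Q or the exp107 library of the 72Q control (adjusted p = 0.0597 to 0.155). Without any scaling beyond library totals 31 rose and 2 fell, Mdm4, Ddit4 and Rrm2b losing their calls and Gadd45a, Eda2r, Bcl2 and Mcl1 gaining one. At that setting 9733 of all 15103 genes were called, 69.7% of these higher. Without the experiment block Btg2, Zmat3, Sesn1 and Rrm2b lost their calls (adjusted p = 0.0511 to 0.273).

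**Figure D2:**
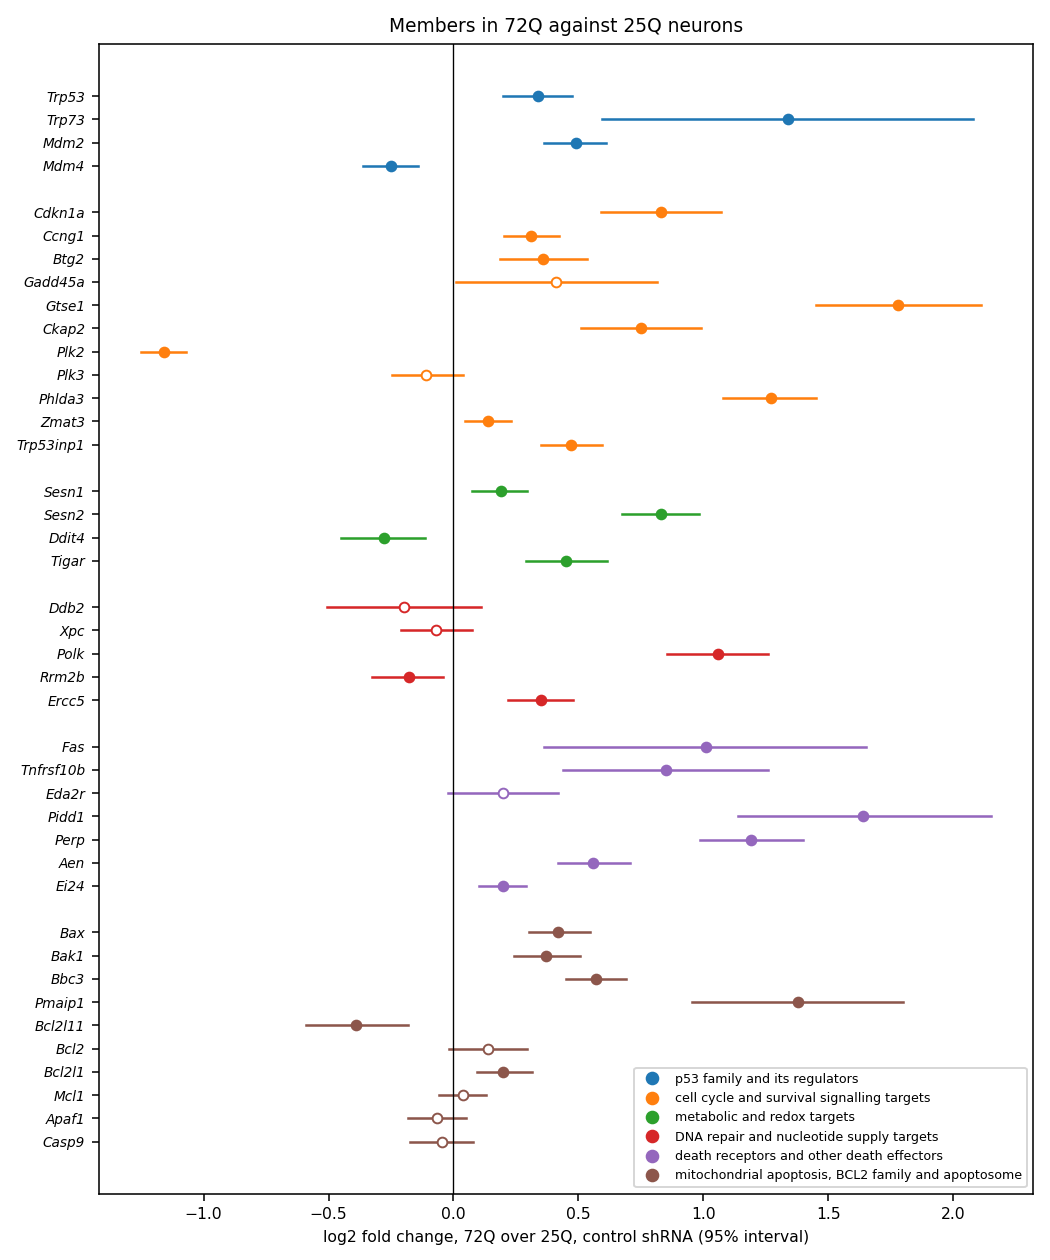
Log2 fold change of each gene in 72Q over 25Q neurons with the control shRNA (x axis), with 95% intervals as bars, grouped and coloured by role, and filled where the adjusted p was under 0.05. Points lie to the right of 0 for 27 called genes, from Zmat3 at 0.14 to Gtse1 at 1.78, and to the left for 5, with Plk2 farthest at -1.16.

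The libraries of 72Q neurons with the control were not alike in these genes. Of the 41 genes, 21 were higher in both the exp108 and the exp109b library than in the exp107 and exp109a libraries, among them Mdm2, Ccng1, Gtse1, Phlda3, Pidd1, Bax and Pmaip1, and 3 were lower in both. The same count was 5 higher and 4 lower in 25Q, 8 and 4 with shRNA 1, and 11 and 5 with shRNA 2. The share of all genes split in this way was not counted, so the split is not shown to be particular to the 41. The same pair of libraries lay apart on the first principal component of all genes, at -23.3 and -20.5 against -3.75 and -3.57, where the 25Q libraries lay at 35 to 39.2. The exp108 and exp109b libraries were also the lower pair on this component with shRNA 1 (-7.86 and -7.7 against 3.01 and 1.22) and with shRNA 2 (-27.2 and -27.8 against -11.6 and -20.2). The sources used here do not say what sets these experiments apart, and their part in the result was not tested. Of the 21 genes, 17 were called higher in 72Q than in 25Q, where 27 of the 41 and 29.3% of all genes tested were. Each of these 17 was higher within all 4 experiments. Since the 17 were picked by values of these same libraries, this is a description.

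**Figure D3:**
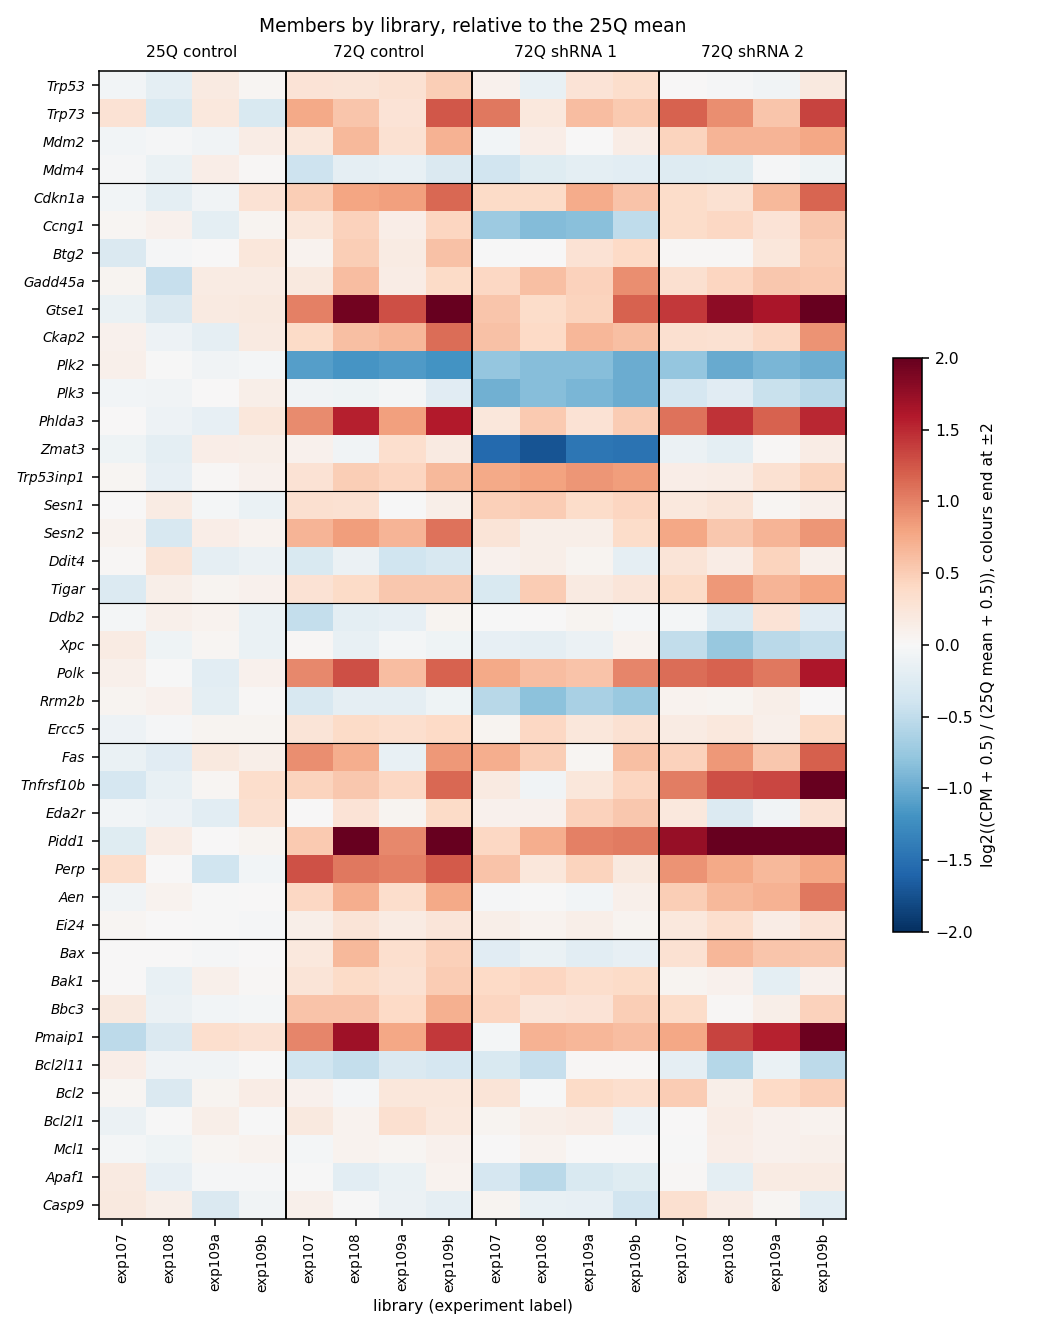
Level of each gene in each of the 16 libraries as log2 of its CPM plus 0.5 over the 25Q mean plus 0.5 (colour, red above and blue below), with genes in rows by role and libraries in columns by group and experiment. Gtse1, Phlda3, Pidd1 and Pmaip1 are red throughout the 72Q control and shRNA 2 columns and, among the control columns, deeper in exp108 and exp109b than in exp107 and exp109a, while Zmat3, Ccng1, Plk3 and Rrm2b are blue in the shRNA 1 columns.

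Each Twist1 shRNA was then compared with the control shRNA in 72Q neurons, which asks which of these genes changed when Twist1 was lowered. With shRNA 1, Zmat3, a zinc finger RNA-binding protein, fell to 0.31 of its control level, Gtse1 to 0.477, Ccng1 (cyclin G1) to 0.484, Phlda3 to 0.549 and Plk3 to 0.558. With shRNA 2 these 5 stood at 0.89, 1.13, 1.07, 1.04 and 0.819 of the control, Zmat3 and Plk3 being called lower and the other 3 passing no threshold. The genes that rose most with shRNA 2 were Pidd1 (1.92-fold) and Tnfrsf10b, the mouse TRAIL receptor (1.89-fold).

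In counts, 4 of the 41 genes rose and 22 fell with shRNA 1, where 22.7% of all genes tested were called higher and 23.6% lower, or 46.3% in either direction. With shRNA 2, 10 rose and 8 fell, against 20.2% and 21.5% of all genes, or 41.8% in either direction. The medians were -0.19 with shRNA 1 and 0.093 with shRNA 2, beside -0.0054 and 0.0015 over all genes. Without the experiment as a block 13 genes fell with shRNA 1, the calls of Trp53, Cdkn1a, Tigar, Polk, Tnfrsf10b, Pidd1, Ei24, Bbc3 and Bcl2l1 being lost (adjusted p = 0.0841 to 0.21). With shRNA 2, 5 then rose, the calls of Mdm2, Zmat3, Trp53inp1, Tigar, Polk, Aen and Bcl2 being lost (adjusted p = 0.0761 to 0.29). Of all genes 4561 and 3621 were then called with shRNA 1 and shRNA 2, 49.2% and 46.7% of these higher. Without scaling beyond library totals 17 rose and 6 fell with shRNA 2, Zmat3 and Trp53inp1 losing their calls and Mdm4, Ccng1, Ei24, Bax, Mcl1, Apaf1 and Casp9 being called higher. At that setting 6708 of all 15103 genes were called with shRNA 2, 65.3% of these higher. Under single left-out libraries, 6 of the 22 genes lower with shRNA 1 (Trp53, Cdkn1a, Polk, Tnfrsf10b, Ei24 and Bcl2l1) and 4 of the 10 higher with shRNA 2 (Mdm2, Tigar, Polk and Aen) lost their call at least once. Both comparisons share the 72Q control libraries with each other and with the comparison to 25Q.

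The direct comparison of the shRNAs does not use the control libraries. Here 20 of the 41 genes were lower and 5 higher with shRNA 1 than with shRNA 2, against 25.9% and 27.3% of all genes tested, or 53.2% in either direction, and the 2 groups did not overlap in 21, where they did not overlap in 33.2% of all genes. Without the experiment block Ddit4, Eda2r and Casp9 lost their calls (adjusted p = 0.0727 to 0.197). Without scaling beyond library totals 23 were lower and 4 higher, where 8131 of all 15103 genes were called, 36.5% of these higher. The largest differences were Pidd1 (log2 -1.7 ± 0.19), Zmat3 (-1.52 ± 0.048), Tnfrsf10b (-1.5 ± 0.17), Gtse1 (-1.24 ± 0.14) and Ccng1 (-1.14 ± 0.0546). Higher with shRNA 1 were Trp53inp1, Xpc, Bak1, Sesn1 and Eda2r, at 0.57, 0.47, 0.39, 0.29 and 0.26. Of the 25 calls only those of Ddit4 and Eda2r were lost when a library was left out, Ddit4 (-0.23 to -0.14, adjusted p = 0.0513 to 0.0674) without exp108 or exp109b of shRNA 1 or exp109a of shRNA 2, and Eda2r (0.15 to 0.27, adjusted p = 0.0678 to 0.276) without exp109a or exp109b of either shRNA or exp108 of shRNA 2. Twist1 transcript, at 110 and 125 summed counts with shRNA 1 and shRNA 2, did not pass the test between them (95% interval -0.526 to 0.394). The cause of the differences between the shRNAs was not tested.

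**Figure D4:**
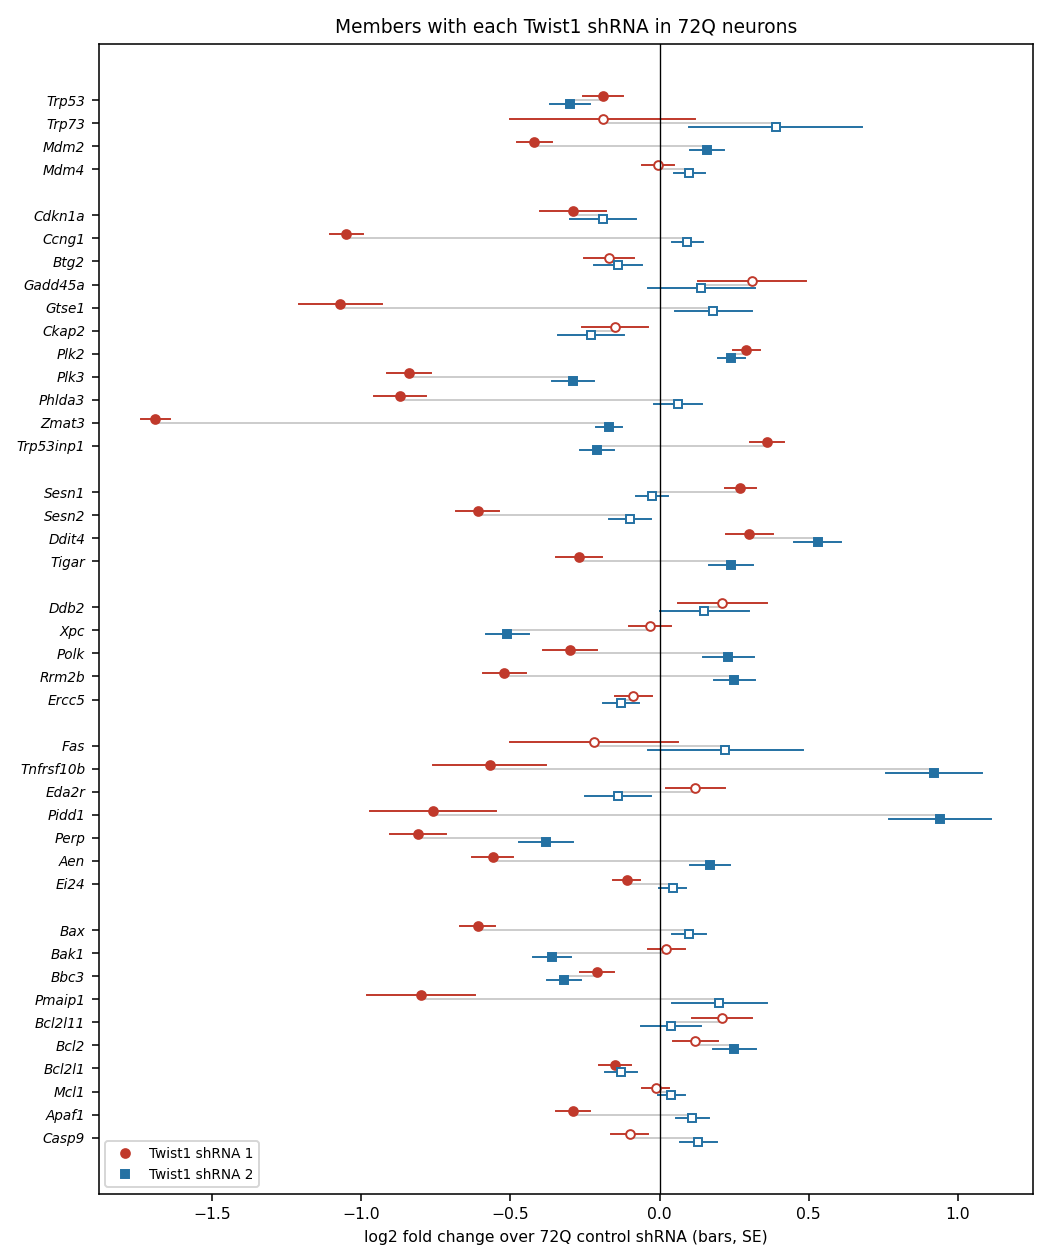
Log2 fold change of each gene over the 72Q control with Twist1 shRNA 1 (red circles) and shRNA 2 (blue squares) on the x axis, with SE as bars, filled where called, genes in rows by role and a grey line joining the pair. The widest gaps are those of Pidd1 (-0.76 and 0.94), Zmat3 (-1.69 and -0.17) and Tnfrsf10b (-0.57 and 0.92), while Plk2 (0.29 and 0.24) and Bbc3 (-0.21 and -0.32) lie together.

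Both knockdown groups were also set against 25Q, which asks how far each 72Q group with a Twist1 shRNA stood from the wild-type fragment. With shRNA 2, 26 genes were higher than in 25Q and 5 lower, where 31.4% and 31.8% of all genes were called, or 63.3% in either direction. Without scaling beyond library totals 35 were higher and 3 lower, where 10538 of all genes were called, 72.3% of these higher. With upper-quartile factors 31 were higher and 4 lower, where 9867 of all genes were called, 61.5% of these higher. With shRNA 1, 19 were higher and 9 lower, beside 28.1% and 29.4% of all genes, or 57.4% in either direction. There 11 were higher without the experiment block, where 6499 of all genes were called, 47.4% of these higher. With upper-quartile scaling and with none, 26 were higher and 7 lower. Of all genes 9031 and 9350 were called at these scalings, 61.2% and 66.5% of these higher. Zmat3 (-1.55 ± 0.0482), Plk3 (-0.95 ± 0.0748), Plk2 (-0.86 ± 0.044), Ccng1 (-0.73 ± 0.0552) and Rrm2b (-0.70 ± 0.0726) were the furthest below 25Q with shRNA 1. Mdm2, at 0.0621 ± 0.0617, and Aen, with a 95% interval of -0.148 to 0.148, showed no difference from 25Q that passed the test with shRNA 1, and were 0.65 ± 0.0595 and 0.73 ± 0.069 above 25Q with shRNA 2. For Mdm2 with shRNA 1 this depended on the scaling, the difference from 25Q being called at 0.147 with upper-quartile factors (adjusted p = 0.0457) and at 0.189 with none (0.0116). These comparisons share the 25Q libraries. Without the experiment block the calls against 25Q of Gtse1, Phlda3, Sesn2, Fas, Eda2r, Pidd1, Bax, Pmaip1, Bcl2 and Casp9 with shRNA 1 (adjusted p = 0.0563 to 0.32) and of Mdm4, Btg2 and Sesn1 with shRNA 2 (0.11 to 0.224) were lost. With shRNA 1 a single left-out library ended 7 calls. Trp73 lost its call without exp109b of 25Q or exp107 of shRNA 1 (0.83 to 0.96, adjusted p = 0.0554 to 0.0693), and Eda2r without exp109a of either group (0.21 to 0.26, adjusted p = 0.0653 to 0.115). Sesn2 lost it without exp108 or exp109b of 25Q or exp107 or exp108 of shRNA 1 (0.14 to 0.20, adjusted p = 0.0595 to 0.0812), and Fas without any of these or exp107 of 25Q (0.63 to 0.79, adjusted p = 0.0668 to 0.141). Pmaip1 (0.42 to 0.60, adjusted p = 0.0551 to 0.132) and Casp9 (-0.16 to -0.10, adjusted p = 0.0594 to 0.198) lost it without exp107, exp108 or exp109b of 25Q or exp107 or exp108 of shRNA 1, and also without exp109a of shRNA 1 for Pmaip1 and exp109b of shRNA 1 for Casp9. The seventh, Bax, is described with its values. With shRNA 2 the calls of Mdm4 and Gadd45a, described with their values, were lost in the same way, as were those of Btg2 without exp107 or exp109b of 25Q or exp107, exp109a or exp109b of shRNA 2 (0.19 to 0.21, adjusted p = 0.0606 to 0.0808) and of Sesn1 without exp107 or exp109b of 25Q (0.13, adjusted p = 0.0561 to 0.0562).

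Trp53 and its regulators came first among the roles. Trp53 had 29.7, 26.9, 34.9 and 31.8 CPM with 25Q, 37.4, 36.8, 38.2 and 43.4 with 72Q and the control, 32.6, 27.8, 37.3 and 39.6 with shRNA 1 and 31.1, 30.3, 29.4 and 35.5 with shRNA 2. Every 72Q control library was above every 25Q and every shRNA 2 library, while the shRNA 1 libraries overlapped both. It rose by 0.34 ± 0.067 in 72Q (adjusted p = 8.51e-05, 4 of 4 experiments) and fell by 0.30 ± 0.0658 with shRNA 2 (adjusted p = 3.97e-04, 4 of 4). The fall with shRNA 1, 0.19 ± 0.0658 (adjusted p = 0.0199), was lost without the exp108 library of the control or the exp107 or exp108 library of shRNA 1 (-0.18 to -0.13, adjusted p = 0.0548 to 0.139). A Trp53 pseudogene is annotated in the mouse, and reads it could share were not resolved here.

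Mdm2, which p53 induces and which in turn targets p53 for degradation, had 35.7, 36.4, 35.3 and 41.2 CPM with 25Q and 43.8, 58.8, 46.3 and 60.4 CPM with 72Q and the control. It had 35.7, 40.8, 37.4 and 41.4 CPM with shRNA 1 and 50.6, 59.6, 59.7 and 63.8 CPM with shRNA 2. The shRNA 1 libraries lay within or just beside the 25Q range, and those of the control and shRNA 2 lay above both. The log2 fold changes were 0.49 ± 0.0603 for 72Q over 25Q (adjusted p = 5.61e-08), -0.42 ± 0.0597 with shRNA 1 (7.78e-07) and 0.16 ± 0.0574 with shRNA 2 (0.0225), the last lost without the exp109a or exp107 library of the control or the exp109a library of shRNA 2 (0.12 to 0.13, adjusted p = 0.0925 to 0.147). Mdm4, the Mdm2 homolog that masks p53, moved the other way in 72Q, falling from 61.9 ± 4.6 to 52 ± 4.3 CPM (log2 -0.25 ± 0.0533). Without scaling beyond library totals that call was lost (-0.117, adjusted p = 0.0581). Mdm4 was at 51.8 ± 2.96 CPM with shRNA 1 and 55.8 ± 4.56 with shRNA 2. The latter was called lower than 25Q (-0.15 ± 0.0527), a call lost without the exp107 library of 25Q or the exp108 library of shRNA 2 (-0.13 to -0.12, adjusted p = 0.0552 to 0.0699) or with upper-quartile factors (-0.0515, adjusted p = 0.406), and turned to 0.058 without scaling beyond library totals.

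Trp73, the p53 relative that neurons also use in development, was barely detected, with 13 counts summed over the 25Q libraries and 48 over the 72Q control libraries. Its log2 fold change of 1.34 ± 0.36 (2.53-fold, adjusted p = 0.00241) came with overlapping groups. The ratio of the summed counts, scaled by depth and taken without the prior count of the fit, was 3.77, with a counting interval of 2.01 to 7.6. It passed the test with neither shRNA (-0.19 ± 0.31 and 0.39 ± 0.29, adjusted p = 0.661 and 0.293). The gene overlaps an annotated antisense transcript, Trp73os, and the counting is not stated to use strand, which also touches the other 13 of the 41 genes that overlap an annotated antisense gene.

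The cell cycle and survival signalling targets were the largest role, with 11 genes, of which 8 rose and 1 fell in 72Q, 2 rose and 6 fell with shRNA 1, and 1 rose and 3 fell with shRNA 2. These are 81.8%, 72.7% and 36.4% called, where 57.1%, 46.3% and 41.8% of all genes were. Cdkn1a, the cyclin-dependent kinase inhibitor p21, had 65.8, 59.5, 64.9 and 83.3 CPM with 25Q and 96.9, 118, 121 and 153 with 72Q and the control. It had 89.5, 89.3, 115 and 102 CPM with shRNA 1 and 87.9, 84.6, 107 and 154 CPM with shRNA 2. All 12 of the 72Q libraries were above all 25Q libraries, and the 3 72Q groups overlapped one another. The rise in 72Q was 0.83 ± 0.11 (adjusted p = 3.65e-05), and Cdkn1a was still 0.54 ± 0.11 above 25Q with shRNA 1 and 0.64 ± 0.11 with shRNA 2. Its fall of 0.29 ± 0.11 with shRNA 1 (adjusted p = 0.0448) was lost with any of 10 of the 16 libraries left out (-0.31 to -0.18, adjusted p = 0.0506 to 0.135), the exp107, exp108 and exp109b libraries of shRNA 1, the exp108, exp109a and exp109b libraries of the control, the exp108 and exp109b libraries of 25Q and the exp107 and exp109a libraries of shRNA 2. It was also lost with upper-quartile factors (0.0688) and without the experiment block (0.21). With shRNA 2 the change of -0.19 ± 0.11 did not pass the test (adjusted p = 0.176), but was called without the filter on low counts (0.0032), in a fit of the 2 groups alone (0.0121) and without the exp109b library of shRNA 1 (0.0311) or of shRNA 2 (0.00916). The shRNAs differed by -0.0962 ± 0.11 (adjusted p = 0.486, 95% interval -0.332 to 0.139).

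Zmat3 had the largest fold change with shRNA 1 of the 41 genes, followed by Gtse1 and Ccng1. Zmat3 (chr3:32334796-32365678, minus strand, GRCm38) had 131, 121, 153 and 151 CPM with 25Q, 147, 133, 175 and 158 with 72Q and the control, and 128, 121, 142 and 154 with shRNA 2. With shRNA 1 it had 46.8, 41.7, 50.8 and 49.9 CPM. The shRNA 1 libraries formed a tight group under a range that the other 12 libraries shared. The log2 fold change against the control was -1.69 ± 0.0481 with shRNA 1 (adjusted p = 5.73e-22, 4 of 4 experiments) and -0.17 ± 0.0446 with shRNA 2 (0.00305, 4 of 4), and that of 72Q over 25Q was 0.14 ± 0.0448 (0.00963), the call named above as lost without 1 library. Against 25Q, Zmat3 with shRNA 2 stood at -0.0295 ± 0.0449, which became 0.18 (adjusted p = 5.39e-04) without scaling beyond library totals. Ccng1, which carries one of the abutting decamer pairs printed above, had 118, 122, 100 and 120 CPM with 25Q and 134, 159, 126 and 155 CPM with 72Q and the control. It had 69.2, 63.1, 64.3 and 80.5 CPM with shRNA 1 and 149, 154, 139 and 168 CPM with shRNA 2. Every shRNA 1 library was thus below every 25Q library, and every shRNA 2 library above. It rose by 0.31 ± 0.0532 in 72Q (adjusted p = 1.01e-05), fell by 1.05 ± 0.0548 with shRNA 1 (8.99e-16) and stood at 0.0934 ± 0.0524 with shRNA 2 (0.158).

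Phlda3 and Gtse1 rose in 72Q, fell with shRNA 1 and did not pass the test with shRNA 2. Phlda3 had 19.5, 18, 17.2 and 22.9 CPM with 25Q, 37.9, 57.8, 34.6 and 59.5 with 72Q and the control, 22.8, 28, 23.9 and 27.9 with shRNA 1 and 41.7, 53.7, 44.4 and 56.1 with shRNA 2. The shRNA 1 libraries lay between the other groups, touching the top of the 25Q range. Its fall with shRNA 1 was 0.87 ± 0.0865 (adjusted p = 3.45e-08) after a rise in 72Q of 1.27 ± 0.0903 (1.08e-10), and with shRNA 2 the change was 0.0613 ± 0.0808 (0.584). Gtse1 had 3.19, 2.81, 4.11 and 4.13 CPM with 25Q, 7.68, 15, 9.38 and 19 with 72Q and the control, 5.47, 4.76, 5.03 and 8.73 with shRNA 1 and 10.3, 13.6, 12.1 and 21.5 with shRNA 2. All 72Q libraries of the 3 groups were above those of 25Q, and exp109b was the highest in each group of 72Q neurons. The rise in 72Q was 1.78 ± 0.16 (adjusted p = 3.56e-09), the change with shRNA 1 was -1.07 ± 0.14 (2.26e-06) and that with shRNA 2 was 0.18 ± 0.13 (0.281). Gtse1 is also a cell cycle gene, and beside it the proliferating progenitor markers summed to 112 to 175 CPM in 25Q, 137 to 205 in 72Q with the control, 143 to 179 with shRNA 1 and 121 to 161 with shRNA 2. Their part in the level of Gtse1 was not tested.

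Of the polo-like kinases, Plk2, which neuronal activity also induces, had 251, 234, 225 and 229 CPM with 25Q and 109, 104, 107 and 102 CPM with 72Q and the control. It had 138, 130, 130 and 118 CPM with shRNA 1 and 138, 117, 124 and 119 CPM with shRNA 2. The 25Q libraries were far above all others, and both shRNA groups lay just above the control. The log2 fold changes were -1.16 ± 0.0446 in 72Q (adjusted p = 1.62e-18), 0.29 ± 0.0449 with shRNA 1 (3.13e-06) and 0.24 ± 0.0448 with shRNA 2 (6.83e-05), and the shRNAs differed by 0.0531 ± 0.0445 (0.329, 95% interval -0.0378 to 0.144). Plk3, a stress-responsive kinase of the same family, had 26.5, 26.2, 27.4 and 29.6 CPM with 25Q, 26.2, 25.9, 26.6 and 23.3 with 72Q and the control, 13.9, 14.9, 14.3 and 13.5 with shRNA 1 and 21.7, 23.3, 20 and 18.6 with shRNA 2. The ranges of the 25Q and 72Q control groups overlapped, and the shRNA 1 libraries were the lowest. It did not pass the test in 72Q (-0.11 ± 0.0697, adjusted p = 0.198), and fell by 0.84 ± 0.0748 with shRNA 1 (1.14e-10) and by 0.29 ± 0.0705 with shRNA 2 (0.00142). The gene overlaps Tctex1d4 on the other strand.

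Of the remaining genes in this role, Trp53inp1, a promoter of autophagy and p53-dependent death, went against the direction of most targets with shRNA 1. It rose from 48.7 ± 3.87 to 67.7 ± 7.29 CPM in 72Q (log2 0.47 ± 0.0591), rose again to 86.5 ± 3.03 CPM with shRNA 1 (0.36 ± 0.0566) and fell to 58.5 ± 6.08 CPM with shRNA 2 (-0.21 ± 0.0576). The antiproliferative gene Btg2 rose in 72Q (13.7 ± 2.07 to 17.6 ± 3.12 CPM, log2 0.36 ± 0.0849), as did Ckap2, a spindle protein (5.57 ± 0.703 to 9.51 ± 2.29 CPM, 0.75 ± 0.12), and neither passed the test with either shRNA. Gadd45a, a stress sensor, was at 1.54 ± 0.381 CPM in 25Q and 2.09 ± 0.398 in 72Q with the control (0.41 ± 0.20, adjusted p = 0.0736). It was higher than 25Q with shRNA 1 (0.72 ± 0.19) and with shRNA 2 (0.55 ± 0.19), the latter lost without exp108 of 25Q or exp109a of shRNA 2 (0.36 to 0.49, adjusted p = 0.0502 to 0.106).

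The metabolic and redox targets numbered 4, of which 3 rose and 1 fell in 72Q, where 57.1% of all genes were called. Sesn2, a sestrin that restrains mTORC1 under stress, rose from 64.4 ± 8.93 to 115 ± 15.9 CPM (log2 0.83 ± 0.0737), fell with shRNA 1 to 74.9 ± 6.29 (-0.61 ± 0.0725) and was at 107 ± 10.6 with shRNA 2 (-0.10 ± 0.0708, adjusted p = 0.264). Its relative Sesn1 rose slightly in 72Q (0.19 ± 0.0537) and rose further with shRNA 1 (0.27 ± 0.0521), reaching 58.9 ± 2.47 CPM from 43.1 ± 3.76 in 25Q, and did not pass the test with shRNA 2 (-0.026 ± 0.0525). Tigar, a fructose bisphosphatase that diverts glucose to the pentose phosphate pathway, rose in 72Q (0.45 ± 0.079), fell with shRNA 1 (-0.27 ± 0.0771) and rose with shRNA 2 (0.24 ± 0.0736), a call lost without the exp108 control library (0.15, adjusted p = 0.116). Ddit4, an mTORC1 inhibitor that many stresses induce, was the one to fall in 72Q, a call lost without scaling beyond library totals (-0.147, adjusted p = 0.177). It had 107, 125, 92.5 and 97 CPM with 25Q, 84.9, 96.3, 79.5 and 84.3 with 72Q and the control, 111, 114, 109 and 92.2 with shRNA 1 and 126, 117, 143 and 113 with shRNA 2. The control and 25Q ranges overlapped, and all shRNA 2 libraries were above all control libraries. Its changes were -0.28 ± 0.0793 in 72Q (adjusted p = 0.00568, lower in 4 of 4 experiments), 0.30 ± 0.079 with shRNA 1 (0.00469) and 0.53 ± 0.0784 with shRNA 2 (2.87e-05).

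Among 5 genes of DNA repair and nucleotide supply, 2 rose and 1 fell in 72Q so that 3 of 5 were called, a share close to the 57.1% of all genes. Polk, a translesion DNA polymerase, rose from 8.84 ± 0.886 to 18.6 ± 3.77 CPM (log2 1.06 ± 0.0987), and the endonuclease gene Ercc5 from 27.3 ± 1.43 to 34.8 ± 1.47 CPM (0.35 ± 0.0628). With the shRNAs Polk was at 15.1 ± 1.98 and 21.8 ± 4.19 CPM, called lower with shRNA 1 (-0.30 ± 0.0906) and higher with shRNA 2 (0.23 ± 0.0859). The first of these was lost without exp108 of the control or of shRNA 1 (-0.23 to -0.17, adjusted p = 0.0636 to 0.114), and the second without exp107, exp109a or exp109b of the control or exp109a or exp109b of shRNA 2 (0.16 to 0.22, adjusted p = 0.0747 to 0.184). Rrm2b, the p53-inducible ribonucleotide reductase subunit, was at 33.7 ± 2.85 CPM in 25Q, 29.6 ± 1.99 in 72Q with the control, 20.7 ± 1.7 with shRNA 1 and 35.3 ± 1.18 with shRNA 2. It fell with shRNA 1 (-0.52 ± 0.073) and rose with shRNA 2 (0.25 ± 0.0685), and neither knockdown group overlapped the control.

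Xpc, a sensor of DNA lesions in nucleotide excision repair, was the one gene of this role lowered by shRNA 2. It had 31.2, 26.1, 28.5 and 25.2 CPM with 25Q, 28.2, 24.9, 26.8 and 26 with 72Q and the control, 24.6, 24.4, 25.4 and 29 with shRNA 1 and 19.6, 16.1, 19 and 19.7 with shRNA 2. All shRNA 2 libraries were below the other 12, whose ranges overlapped. The log2 fold change with shRNA 2 was -0.51 ± 0.0715 (adjusted p = 1.06e-06) and that with shRNA 1 was -0.0328 ± 0.0697 (0.733), and the shRNAs differed by 0.47 ± 0.0717 (1.95e-06). Ddb2, which opens damaged chromatin for the same repair pathway, passed the test in none of the 6 comparisons, at 3.12 ± 0.544 to 3.64 ± 0.102 CPM over the groups, and overlaps Acp2 on the other strand.

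The death receptors and other death effectors had the highest median in 72Q, at 0.85, with 6 of 7 genes up and none down. With shRNA 1, 5 of the 7 fell and none rose, and with shRNA 2, 3 rose and 1 fell. Called in all were 85.7%, 71.4% and 57.1%, where 57.1%, 46.3% and 41.8% of all genes were. Pidd1 (chr7:141438113-141444025, minus strand, GRCm38), which joins caspase 2 in the PIDDosome, had 2.72, 3.73, 3.31 and 3.43 CPM with 25Q, 4.94, 16.4, 6.9 and 15.3 with 72Q and the control, 4.58, 5.78, 7.12 and 7.3 with shRNA 1 and 12.2, 24.9, 17.5 and 28 with shRNA 2. The control libraries were split, exp108 and exp109b lying above all shRNA 1 libraries and exp107 and exp109a within their range. The changes were 1.64 ± 0.23 in 72Q (adjusted p = 4.39e-05, 4 of 4 experiments), -0.76 ± 0.21 with shRNA 1 (0.00853, lower in 3 of 4) and 0.94 ± 0.17 with shRNA 2 (7.12e-04, higher in 4 of 4). Without the experiment block the fall with shRNA 1 did not pass the test (-0.81, adjusted p = 0.0841).

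Tnfrsf10b had 0.637, 0.795, 0.981 and 1.33 CPM with 25Q and 1.46, 1.58, 1.41 and 2.68 CPM with 72Q and the control. It had 1.12, 0.87, 1.19 and 1.43 CPM with shRNA 1 and 2.42, 3.01, 3.14 and 5.41 CPM with shRNA 2. Its shRNA 1 libraries overlapped those of 25Q, and its shRNA 2 libraries lay above all others but the exp109b control library. The log2 fold changes were 0.85 ± 0.20 in 72Q (adjusted p = 6.32e-04), -0.57 ± 0.19 with shRNA 1 (0.0146) and 0.92 ± 0.16 with shRNA 2 (2.29e-05). The call with shRNA 1 was lost without the exp109b library of the control or of shRNA 1 (-0.55 to -0.45, adjusted p = 0.0508 to 0.0931), with DESeq2 (adjusted p = 0.0513) and without the experiment block (0.117). Fas, the other classical death receptor, had 24 counts over the 25Q libraries and 61 over those of the 72Q control, a depth-scaled ratio of 2.6 (counting interval 1.6 to 4.36), and was called higher in 72Q at 1.01 ± 0.32 (adjusted p = 0.00736, higher in 3 of 4 experiments). It passed the test with neither shRNA (-0.22 ± 0.28 and 0.22 ± 0.26). The ectodysplasin receptor Eda2r stayed between 10.2 ± 1.81 and 12.7 ± 2.23 CPM, and passed the test in 72Q with neither the control (0.20 ± 0.11, adjusted p = 0.12) nor shRNA 2 (0.0603 ± 0.11 over 25Q, 0.645).

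Perp, a desmosomal membrane protein that promotes apoptosis, rose from 4.85 to 8.51 CPM over the 25Q libraries to 13.7 to 16.6 CPM over those of the 72Q control (log2 1.19 ± 0.10) and fell with both shRNAs, to 8.59 ± 1.16 CPM with shRNA 1 (-0.81 ± 0.0952) and 11.6 ± 0.846 with shRNA 2 (-0.38 ± 0.0902). The nuclease Aen rose from 50.8 ± 2.13 to 75.6 ± 10.9 CPM (0.56 ± 0.0696), was at 50.9 ± 2.47 CPM with shRNA 1 (-0.56 ± 0.0693) and reached 85 ± 14.5 with shRNA 2 (0.17 ± 0.0667). The last call was lost with any of 9 libraries left out (0.11 to 0.18, adjusted p = 0.0533 to 0.217), the exp107, exp109a and exp109b libraries of the control, the exp108, exp109a and exp109b libraries of shRNA 1, the exp109a and exp109b libraries of shRNA 2 and the exp108 library of 25Q. Ei24, a membrane protein of the endoplasmic reticulum with a role in autophagy, rose from 144 ± 3.09 to 165 ± 8.34 CPM in 72Q (0.20 ± 0.046, 1.15-fold). Its fall with shRNA 1 (-0.11 ± 0.0458, adjusted p = 0.0439) was lost with any of 8 libraries left out (-0.12 to -0.087, adjusted p = 0.0504 to 0.163), which were the exp109a library of 25Q, the exp108, exp109a and exp109b libraries of the control, the exp108 and exp109b libraries of shRNA 1 and the exp107 and exp109b libraries of shRNA 2. That call was also lost with upper-quartile (adjusted p = 0.105) or RLE scaling (0.0502), without the filter on low counts (0.157) and with DESeq2 (0.0582). The same held with the title numbers as the block (0.13).

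**Figure D5:**
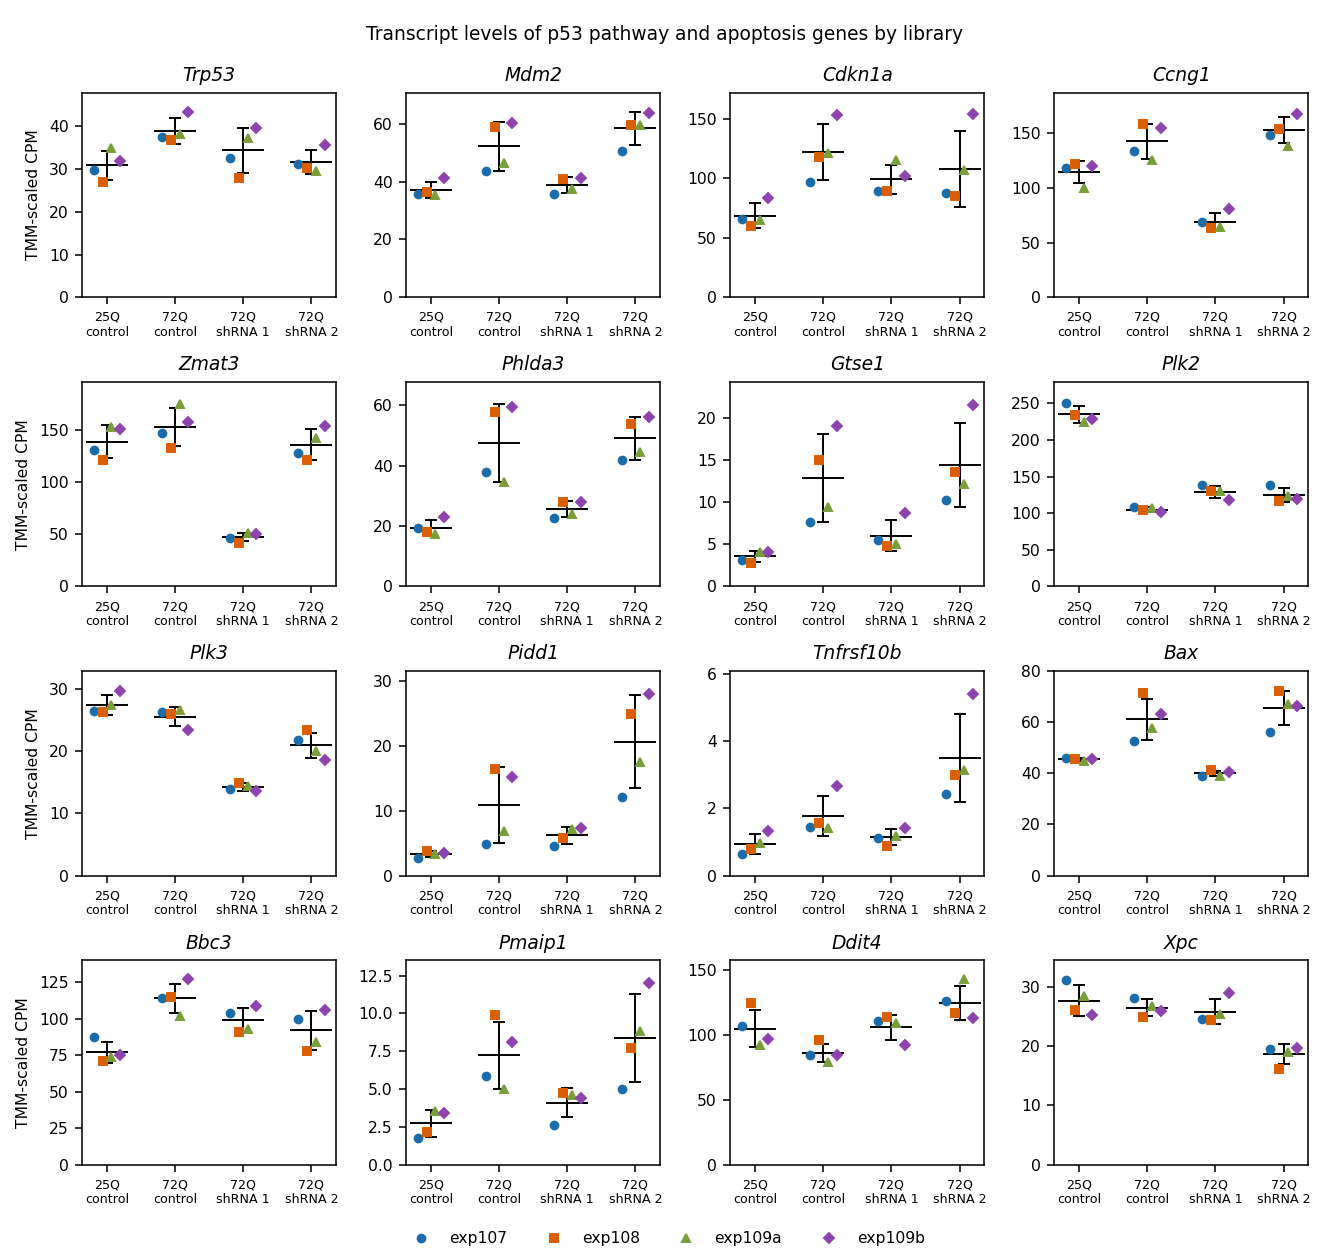
Level of 16 genes (y axes, TMM-scaled CPM, each from 0) in the 4 groups (x axes), with 1 symbol per library by experiment and the mean with SD as a bar. With shRNA 1, Mdm2 sits near the 25Q level, Bax just below it and Phlda3 between 25Q and the control, while with shRNA 2 these genes sit near the control level. Zmat3 is lowest with shRNA 1 (41.7 to 50.8 CPM), and Plk2 is highest with 25Q (225 to 251 CPM).

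The mitochondrial role held 10 genes. In 72Q, 5 rose, 1 fell and 4 did not pass the test, so that 6 of 10 were called, a share close to the 57.1% of all genes. With shRNA 1, 5 fell and none rose (50.0% called against 46.3% of all genes), and with shRNA 2, 1 rose and 2 fell (30.0% against 41.8%). Bax, the pore-forming effector, had 45.9, 45.8, 44.7 and 45.5 CPM with 25Q and 52.7, 71.5, 57.8 and 63.3 with 72Q and the control. It had 39, 41.3, 39.1 and 40.6 CPM with shRNA 1 and 56.3, 72.5, 67.3 and 66.4 CPM with shRNA 2. Each shRNA 1 library was below each 25Q library, and the control and shRNA 2 libraries were above both. Bax rose by 0.42 ± 0.0595 in 72Q (adjusted p = 4.51e-07), fell by 0.61 ± 0.0598 with shRNA 1 (8.74e-10) and stood at 0.0981 ± 0.0572 with shRNA 2 (0.176). Its level with shRNA 1 was 0.19 ± 0.0615 under that of 25Q on the log2 scale (adjusted p = 0.0107), which was lost without the exp107 library of 25Q or the exp108 library of shRNA 1 (-0.16 to -0.13, adjusted p = 0.0529 to 0.0876), without the experiment block (0.0916) and with upper-quartile scaling (0.168) or none (0.429). Bak1, the other effector, rose from 38.2 ± 2.76 to 49.6 ± 3.91 CPM in 72Q (0.37 ± 0.0649) and was at 50.3 ± 1.15 CPM with shRNA 1 (0.023 ± 0.063, adjusted p = 0.795) and 38.6 ± 3.59 with shRNA 2 (-0.36 ± 0.0639). The difference between the shRNAs was -0.71 ± 0.0593 for Bax and 0.39 ± 0.0639 for Bak1, and Bak1 overlaps Ggnbp1 on the other strand.

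Bbc3, which encodes Puma, had 87.8, 71.2, 73.8 and 75 CPM with 25Q, 114, 115, 102 and 127 with 72Q and the control, 104, 90.8, 93.3 and 109 with shRNA 1 and 100, 78, 83.9 and 106 with shRNA 2. The control libraries were above all of 25Q, the shRNA 1 libraries also lay above all of 25Q while overlapping the control, and the shRNA 2 libraries overlapped both. It rose by 0.57 ± 0.0579 in 72Q (adjusted p = 1.66e-09) and fell by 0.21 ± 0.0569 with shRNA 1 (0.00344) and by 0.32 ± 0.0568 with shRNA 2 (3.93e-05), lower in 4 of 4 experiments each time, the first being lost without the experiment block (0.123). The shRNAs differed by 0.11 ± 0.0572 (0.104, 95% interval -0.00583 to 0.228). Pmaip1, which encodes Noxa, had 1.74, 2.14, 3.56 and 3.43 CPM with 25Q, 5.85, 9.92, 5.03 and 8.1 with 72Q and the control, 2.65, 4.71, 4.58 and 4.43 with shRNA 1 and 5, 7.71, 8.81 and 12 with shRNA 2. The shRNA 1 libraries lay under all control libraries and partly within the 25Q range. The changes were 1.38 ± 0.20 in 72Q (adjusted p = 8.43e-06), -0.80 ± 0.18 with shRNA 1 (0.00142) and 0.20 ± 0.16 with shRNA 2 (0.35). Bcl2l11, which encodes Bim, fell in 72Q from 13.5 ± 0.974 to 10.3 ± 0.614 CPM (-0.39 ± 0.10) and passed the test with neither shRNA (0.21 ± 0.10 and 0.0385 ± 0.10).

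Among the guardians, Bcl2l1 (Bcl-xL) rose from 75.8 ± 5.09 to 87.3 ± 6.02 CPM in 72Q (log2 0.20 ± 0.0538) and was lower with shRNA 1 (-0.15 ± 0.0534, adjusted p = 0.0234), a call lost without exp107, exp109a or exp109b of the control or exp109a or exp109b of shRNA 1 (-0.15 to -0.098, adjusted p = 0.0558 to 0.166). Bcl2 was at 13.2 ± 1.73 CPM in 25Q and 14.5 ± 1.22 in 72Q with the control (0.14 ± 0.0765, adjusted p = 0.123) and rose to 17.3 ± 2.12 CPM with shRNA 2 (0.25 ± 0.0725). Mcl1 was at 95.4 ± 4.67, 97.9 ± 3.48, 97 ± 2.21 and 101 ± 4.3 CPM in the 4 groups and passed the test in no comparison at the main scaling, but was called higher in 72Q without scaling beyond library totals (0.172, adjusted p = 0.00181). Its 95% interval for 72Q over 25Q was -0.0579 to 0.13. Of the apoptosome genes, neither Apaf1 (-0.0664 ± 0.0561) nor Casp9 (-0.047 ± 0.0619) passed the test in 72Q. Apaf1 fell with shRNA 1 from 60.6 ± 5.39 to 49.5 ± 4.19 CPM (-0.29 ± 0.0569) and was at 65.6 ± 7.64 with shRNA 2 (0.11 ± 0.0554, adjusted p = 0.0978), and Casp9 differed between the shRNAs at -0.24 ± 0.0613 and overlaps Cela2a and Ctrc on the other strand.

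Genes of the same pathways outside the 41 were read from 3 further lists. Of 20 other p53 regulators and cofactors, 9 rose and 1 fell in 72Q, with a median of 0.18, so that 45.0% were higher where 29.3% of all genes were. Cdkn2a, whose Arf product inhibits Mdm2, rose by 3.27 ± 0.22, from 0.401 ± 0.278 to 4.81 ± 0.963 CPM, and was at 2.74 ± 0.481 with shRNA 1 (-0.78 ± 0.15) and 6.15 ± 1.16 with shRNA 2 (0.35 ± 0.13). The checkpoint kinase gene Chek2 rose by 1.2 ± 0.22 and the acetyltransferase gene Ep300 by 0.43 ± 0.0699. Of 29 other p53 targets, 27 were tested, of which 4 rose and 6 fell, with a median of 0.033, so that 14.8% were higher and 22.2% lower, against 29.3% and 27.8% of all genes. The ubiquitin ligase component Fbxw7 fell by 1.81 ± 0.0538, from 432 ± 6.8 to 124 ± 16.4 CPM, and the growth factor Kitl (1.23 ± 0.0776) and the matrix protein Thbs1 (1.03 ± 0.17) fell too. Of 33 other apoptosis genes, 28 were tested, of which 6 rose and 10 fell, with a median of 0.002, and the 57.1% called equalled the share of all genes. The BH3-only gene Bid rose by 0.69 ± 0.0842, and Bmf, of the same class, and Bok, a Bax relative, fell by 1.1 ± 0.18 and 0.60 ± 0.0807. With shRNA 1 the same lists had 5 up and 7 down (12 of 20 called), 4 up and 5 down (33.3%), and 9 up and 7 down (57.1%), where 46.3% of all genes were called. With shRNA 2 they had 4 up and 7 down (55.0%), 5 up and 3 down (29.6%), and 10 up and 6 down (57.1%), where 41.8% of all genes were called.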

How the data were processed

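Total RNA of 16 libraries was sequenced after Ribo-Zero depletion, per the labels' protocols. The submitters' processing notes name STAR 2.0.4b, Subread featureCounts and GRCm38. They state neither the strand setting nor how multi-mapping reads were handled. The authors deposited a raw count per Ensembl gene, which entered every test. The deposited CPM equalled count over library total (largest difference 2.5e-11) and the deposited RPKM that CPM per kilobase (4.7e-11), and neither was tested. GENCODE M21 gave symbols for 40254 of the 41388 IDs (97.26%) and the overlapping genes. Gene coordinates and exon lengths came with the deposited counts.

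Genes were filtered with filterByExpr and scaled by TMM (factors 0.898 to 1.08). The model in edgeR 4.0.16 (R 4.3.3, glmQLFit with robust estimation, glmQLFTest, prior count 2) had terms for group and experiment over the 16 libraries and a common coefficient of variation of 5.24%. P-values were adjusted by Benjamini-Hochberg over 15103 genes, threshold 0.05. SE is the log2 fold change over the root of F, or the model-based (Wald) SE where F was near 0. The 95% intervals use the degrees of freedom of the test. The prior count shrinks the log2 fold changes of genes with few counts, and their SE and intervals with them. Counting intervals are exact and cover counting error only. Alternatives were DESeq2 1.42.0, other scalings, no filter, the 2 groups alone, other blocks and left-out libraries.

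Groups come from the titles and the replicate pairing from the experiment in the descriptions. Deviations from the group means correlated at 0.301 to 0.697 between libraries of the same experiment and at -0.427 to 0.39 otherwise. Title numbers follow the same order of experiments in the 72Q groups, and in 25Q only number 2 does. No library was found to be a copy of another, the chi-square per degree of freedom between replicates being 2.78 to 22. The labels do not say that replicates were separate cultures, and p-values then cover the spread between these libraries, which may be technical.

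The 41 genes, the lists and the alternatives were chosen with earlier results of these data known. All members may be named. Every library's value is given for Trp53, Mdm2, Cdkn1a, Bax, Bbc3 and, in each of 6 comparisons, the 4 called members with the largest fold change and a mean of at least 1 CPM. Of each further pathway list, the 3 called genes with the largest change in 72Q are named.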

Additional observations from a re-analysis of the deposited data

Results flagged for a closer look

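With 4 libraries per group, the highest or lowest library of each of the 16 genes given library by library was set against the spread of its group, and 2 of the 64 groups examined had a library that stood apart, where chance alone gives about 1 in 20. Pmaip1 was low in the exp107 library of shRNA 1, at 2.65 CPM beside 4.43 to 4.71 in the others. Tnfrsf10b was high in the exp109b library of the 72Q control, at 2.68 CPM beside 1.41 to 1.58 in the others.

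In 8 genes the shRNAs were called in opposite directions against their shared control, while 5 genes were called lower with both and 2 higher with both. The share of all genes called in opposite directions was not counted. Since the 8 were picked for their opposite calls, their differences between shRNA 1 and shRNA 2 are a description. Mdm2, Tigar, Polk, Tnfrsf10b and Aen each lost one or both of these calls when a library was left out. The log2 differences were -0.59 for Mdm2, -0.51 for Tigar, -0.53 for Polk, -0.77 for Rrm2b, -1.5 for Tnfrsf10b, -1.7 for Pidd1 and -0.73 for Aen, all lower with shRNA 1, and 0.57 for Trp53inp1, which was higher with shRNA 1.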

How the results depend on the processing

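Of 5898 values of single genes over 24 alternatives and 6 comparisons, 5637 kept their side of the threshold, of which 75 changed sign while called in neither fit and the others kept their direction, 178 lost the call, 81 gained it and 2 reversed. Without scaling beyond library totals the median of all genes moved to 0.16 in 72Q against 25Q, 0.13 with shRNA 1 against 25Q and 0.22 with shRNA 2 against 25Q, and the share of all calls that were higher moved from 51.4 to 69.7%, 48.9 to 66.5% and 49.7 to 72.3%. There 2 members were lower in 72Q and 3 with shRNA 2 against 25Q, and 17 were higher with shRNA 2 against the control. It also reversed Zmat3 (0.18) and Mdm4 (0.058) with shRNA 2 against 25Q and Htt (0.0037) with shRNA 1 against 25Q. The share of calls moved from 48.5 to 65.3% with shRNA 2 and from 51.3 to 36.5% between the shRNAs, and with upper-quartile factors to 60.7, 61.2 and 61.5% for the control, shRNA 1 and shRNA 2 against 25Q.

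Without the replicate block of experiments, 13 members were lower with shRNA 1, 5 were higher with shRNA 2 and 11 were higher with shRNA 1 against 25Q, and calls over all genes fell from 6999 to 4561 with shRNA 1 and from 6307 to 3621 with shRNA 2. With shRNA 1 against 25Q, calls over all genes fell from 8671 to 6499. With the title numbers as the replicate block, 5 members were higher with shRNA 2. There 4472 of all genes were called, 47.7% of these higher. No other count of members moved by over 1.5 times. With each library left out, members higher and lower numbered 27 to 27 and 4 to 5 in 72Q, 4 to 5 and 18 to 22 with shRNA 1, 7 to 13 and 8 to 10 with shRNA 2, 4 to 6 and 19 to 20 between the shRNAs, 15 to 21 and 7 to 10 with shRNA 1 against 25Q, and 24 to 26 and 4 to 5 with shRNA 2 against 25Q. These fits tested 15245 to 15309 genes in all. Of these, 7868 to 8718 were called in 72Q, 6187 to 7170 with shRNA 1 and 5423 to 6478 with shRNA 2. Between the shRNAs 7209 to 8213 were called, and against 25Q 7997 to 8715 with shRNA 1 and 8944 to 9664 with shRNA 2. In each of these fits 47.3 to 52.0% of the calls were higher. The causes were not tested. Depth limits Trp73 and Fas, under 2 CPM in every library.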
